A study of Homo sapiens with 8 samples.

Results

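The genes that encode splicing factors were examined for FLI1 occupancy at their promoters. They were taken by symbol, as the protein-coding genes whose names begin with SRSF, SNRP, SF3A, SF3B, HNRNP, PRPF or LSM followed by a digit or a letter. The rule found 86 of 20136 protein-coding genes, which were 12 SRSF, 12 SNRP, 3 SF3A, 6 SF3B, 25 HNRNP, 13 PRPF and 15 LSM genes. Of the LSM symbols, LSMEM1 and LSMEM2, belong to membrane proteins with no known part in splicing, and 5 of the HNRNP symbols are gene copies or a readthrough gene (HNRNPA1L2, HNRNPA1L3, HNRNPCL1, HNRNPCL2 and HNRNPUL2-BSCL2). FLI1 is a transcription factor of the ETS family, and its occupancy was mapped by chromatin immunoprecipitation and sequencing (ChIP-Seq) with a rabbit polyclonal antibody in OCI-Ly1 (OCILy1 in the labels) and VAL, both established cell lines of germinal centre B cell (GCB) lymphoma. The cells carried no label of treatment or genetic change. Each line had 2 FLI1 libraries, and no source used here says whether they came from separate cultures.

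The spliceosome removes introns from precursor mRNA, and most of its mass is made of small nuclear ribonucleoproteins (snRNPs), in which a small nuclear RNA is held in a ring of Sm or LSM proteins. The U1 snRNP recognises the start of an intron, and the U2 snRNP, with its SF3A and SF3B subcomplexes, takes hold of the branch point before the U4/U6.U5 tri-snRNP brings in the catalytic core. SR proteins (SRSF genes) mostly promote the use of exons, and the hnRNP proteins coat nascent RNA and often counter them.

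The lists of peaks that could be used were those of OCI-Ly1 replicate 2 (OCI-R2 from here on), VAL replicate 1 (VAL-R1) and VAL replicate 2 (VAL-R2). The list of OCI-Ly1 replicate 1 held 37 intervals, of which 33 were longer than 1 Mb. A gene was called bound in a library when its best peak centred within 3 kb of any of its transcription start sites (TSS) had a −log10 q of at least 3, where q is the false discovery rate of the peak caller and larger values mean stronger evidence. The lists differed in strength. They held 5354, 973 and 6474 peaks past this threshold in OCI-R2, VAL-R1 and VAL-R2. Read numbers at a summit were inferred from the fold enrichment and p of each peak, and at bound splicing factor genes they ran from 6 to 41, from 15 to 25 and from 6 to 32. A gene below the threshold was not detected as bound at this depth rather than shown to be free of FLI1.

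In OCI-R2 the strongest sites lay at genes of the Sm ring, the U1 and U2 snRNPs and the LSM ring, and in VAL-R2 PRPF6 and PRPF19 ranked among them while LSM5 did not. Most of the strongest sites held the ETS motif CCGGAAA or CCGGAAG, on either strand, at the summit. The windows around the OCI-R2 summits follow for the genes bound in every library or past 10 in both OCI-R2 and VAL-R2, and for SF3B1, the branch point protein mutated in blood cancers. They are on GRCh37, on the strand of the gene and 5′ to 3′, 61 bases centred on the summit or 30 bases around the motif where the summit lay in an untranslated exon. Capitals mark the motif, or the shorter ETS core GGAA where the motif is not in the window. SNRPD1 is named only.
SNRPB (chr20:2451415-2451444): cgtggtgctgcaTTTCCGGtagcggcggcg
SNRPB2 (chr20:16710572-16710632): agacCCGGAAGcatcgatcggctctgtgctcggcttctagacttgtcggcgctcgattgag
SNRPC (chr6:34725227-34725287): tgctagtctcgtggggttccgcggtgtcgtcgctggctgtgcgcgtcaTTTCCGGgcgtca
SNRPE (chr1:203830689-203830749): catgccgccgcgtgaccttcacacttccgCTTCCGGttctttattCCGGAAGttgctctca
LSM5 (chr7:32529974-32530003): gaaggcaggccaCTTCCGGcgtagccatgg
SF3A3 (chr1:38455755-38455815): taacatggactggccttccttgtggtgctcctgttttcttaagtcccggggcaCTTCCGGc
PRPF19 (chr11:60673914-60673943): agcagcgggggaCCGGAAGtggctcgcgga
PRPF6 (chr20:62612341-62612401): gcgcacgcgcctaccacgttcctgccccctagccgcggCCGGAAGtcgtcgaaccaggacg
HNRNPF (chr10:43892807-43892867): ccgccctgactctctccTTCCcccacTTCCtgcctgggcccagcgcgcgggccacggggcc
SF3B1 (chr2:198299753-198299782): cggcgacgagcGGAAgttcttgggagcgcc
The SNRPE window held 2 motif matches facing opposite ways. HNRNPF and SF3B1 had none and are the exceptions among these genes.

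Splicing factor genes were bound more often than other protein-coding genes in each of the 3 libraries. In OCI-R2, 32 of 86 were bound (37.2%, Wilson 95% interval 27.7 to 47.8) against 18.9% of the 20050 other genes, and 19.0% of all protein-coding genes. In VAL-R1, 6 were bound (6.98%, interval 3.24 to 14.4) against 3.13% of other genes and 3.14% of all genes. In VAL-R2, 42 were bound (48.8%, interval 38.6 to 59.2) against 20.7% of other genes and 20.9% of all genes. The intervals cover counting error only. No test was made, because genes are not replicates and the gene families were chosen with earlier results of these data known.

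The same held for the sharing between lines. There were 24 genes bound in both lines (27.9%), where all protein-coding genes gave 12.6%, and 6 bound in all 3 libraries (6.98%), where all genes gave 2.74%. At least 1 library called 50 of the 86 genes (58.1%, against 27.4% of all genes), and 36 were bound in none. The best −log10 q of a splicing factor gene had a median of 2.43 in OCI-R2, 0.38 in VAL-R1 and 2.91 in VAL-R2, where the medians over all protein-coding genes were 1.22, 0.29 and 1.67. These medians cover the genes with a listed peak, and 1, 20 and 1 splicing factor genes had none in the 3 libraries.

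**Figure D1:**
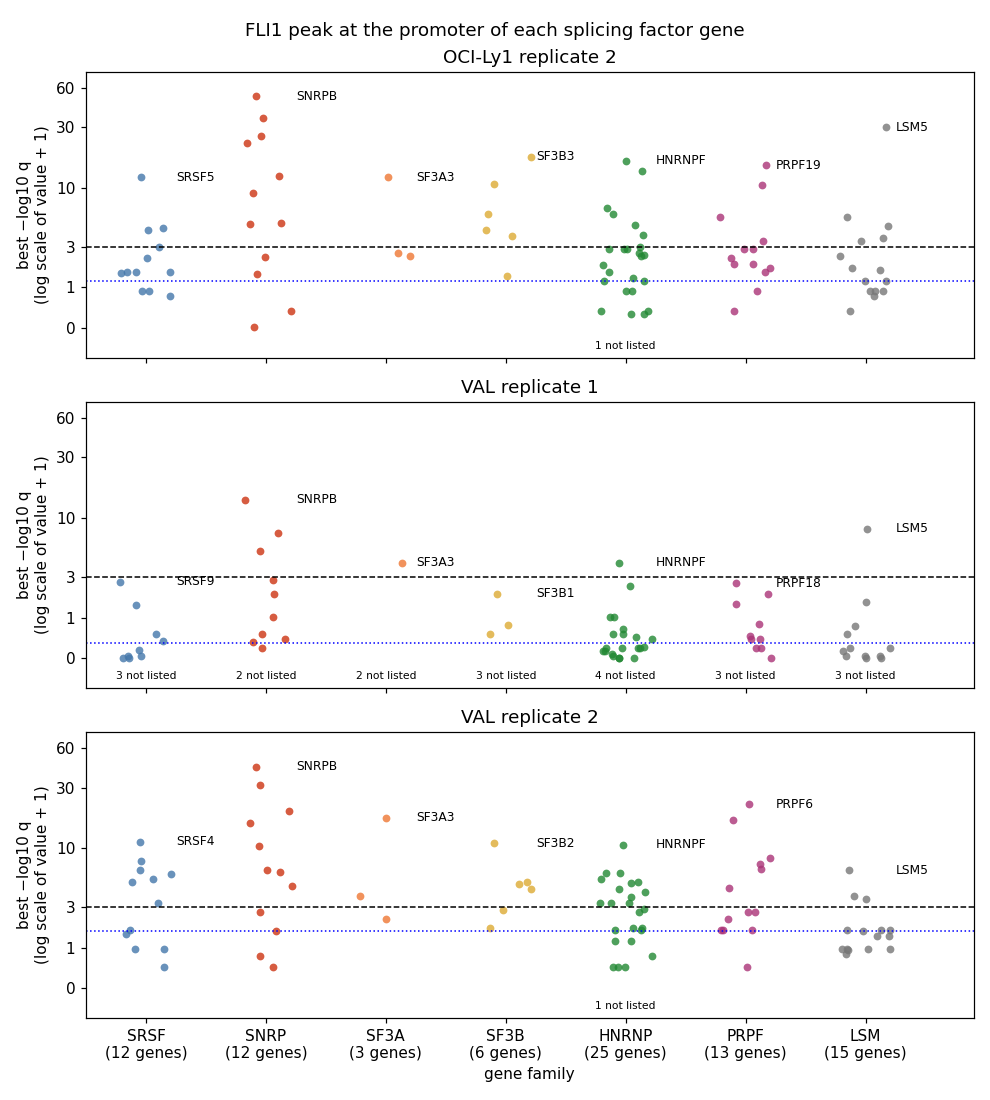
Best −log10 q at the promoter of each splicing factor gene (vertical axis, log scale of the value plus 1) by gene family (horizontal axis) in the 3 libraries, with 1 point per gene; the dashed line is the threshold of 3 and the dotted line the median over all protein-coding genes. SNRPB stands highest in all 3 panels, at 51.67, 14.03 and 43.12, and genes with no listed peak are counted under each family.

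The Sm proteins form the ring that holds the small nuclear RNA in most spliceosomal snRNPs. Of their 8 genes, 5 were bound in both lines (62.5%, against 12.6% of all genes). SNRPB (ENSG00000125835), which encodes the Sm proteins B and B′, reached a −log10 q of 51.67 in OCI-R2, 14.03 in VAL-R1 and 43.12 in VAL-R2, with fold enrichments of 24.5, 8.64 and 22.8. It ranked 40, 82 and 75 among all protein-coding genes, and it was the only splicing factor gene in the top 100 of any library. SNRPD1 (ENSG00000167088), the Sm D1 gene, reached 25.81, 7.45 and 15.94.

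SNRPE, SNRPD3 and SNRPD2 were bound in OCI-R2 and VAL-R2 but not in VAL-R1. Their values in the first pair of libraries were 12.39 and 10.37 for SNRPE, 9.15 and 6.32 for SNRPD3, and 4.94 and 4.72 for SNRPD2. In VAL-R1 SNRPE stood at 0.50, SNRPD3 at 2.01, and SNRPD2 had no listed peak. The SNRPD3 peak lay closer to the start of GUCD1, so the peak cannot be given to one of them.

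The other Sm genes were not called. SNRPG, which completes the ring with SNRPE and SNRPF, reached 2.39 in OCI-R2 and 0.73 in VAL-R2 and had no listed peak in VAL-R1. SNRPF stood at 0.02, 0.38 and 0.43, the weakest OCI-Ly1 value of all listed splicing factor genes. SNRPN, the imprinted brain form of SNRPB, stood at 0.34, 1.02 and 2.70. Genes for proteins of 1 ring thus ranged from the strongest to the weakest of the set in OCI-R2.

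Of the U1 snRNP genes in the set, SNRPC was bound and SNRPA was not. SNRPC (ENSG00000124562), whose protein contacts the 5′ splice site, reached 22.60, 5.26 and 19.69 in OCI-R2, VAL-R1 and VAL-R2. SNRPA, which binds a stem-loop of the U1 RNA, stayed at 1.5, 0.32 and 1.64. Of the U1-associated PRPF39 and PRPF40B, PRPF40B was called in VAL-R2 at 4.58 and PRPF39 in no library.

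The U2 snRNP was the complex with the largest number of shared sites, 7 of 11 genes in both lines (63.6%, against 12.6% of all genes). SNRPB2, whose protein binds the U2 RNA, reached 35.10 in OCI-R2 and 31.24 in VAL-R2 and fell just short in VAL-R1, at 2.83. SNRPA1, the gene of its partner, reached 4.99, 0.18 and 6.52. SF3A3 (ENSG00000183431), a subunit of SF3A, was bound in all 3 libraries at 12.14, 4.12 and 17.53.

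Among the SF3A genes SF3A3 stood apart from its partners. SF3A1, the largest subunit, reached 2.43 in OCI-R2 and 2.27 in VAL-R2, and SF3A2 reached 2.62 and 3.87. Neither had a listed peak in VAL-R1. The best SF3A2 peaks of OCI-R2 and VAL-R2 were at different sites, with summits at bases 2236747 and 2243608.

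In the SF3B complex, which clasps the branch point, 4 of 6 genes were bound in both lines (66.7%, against 12.6% of all genes). SF3B1 reached 10.80, 2.01 and 4.45 in OCI-R2, VAL-R1 and VAL-R2. SF3B3 reached 17.72, 0.50 and 4.97, and its OCI-R2 peak was centred nearer to the start of the neighbour COG4. SF3B2 had the opposite order between lines, with 6.08 in OCI-R2 and 10.97 in VAL-R2. SF3B6, the p14 protein at the branch point adenosine, reached 3.82 and 5.18. SF3B5 was called in OCI-R2 alone (4.39, and 1.82 in VAL-R2) and SF3B4 in none, with 2.84 in VAL-R2.

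**Figure D2:**
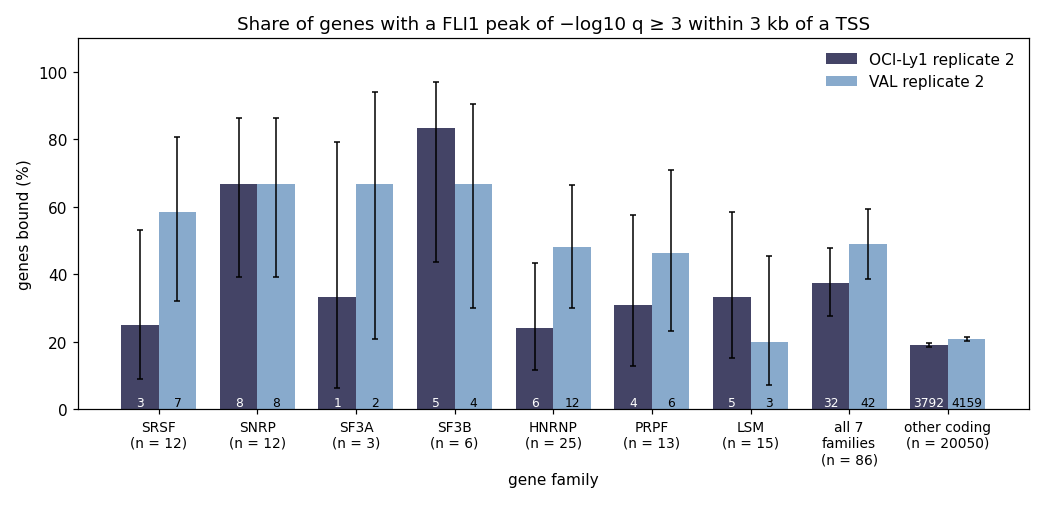
Share of genes bound (vertical axis, percent) in OCI-R2 and VAL-R2 by gene family, over all 86 splicing factor genes and over other protein-coding genes; whiskers are Wilson 95% intervals for counting error, and the number of genes bound stands in each bar. The SNRP family has 8 of 12 genes bound in each library, and the SRSF and HNRNP bars are higher in VAL-R2.

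Several PRPF genes encode proteins of the tri-snRNP and of the activated spliceosome. Of the 13, 4 were bound in OCI-R2 (30.8%), none in VAL-R1 and 6 in VAL-R2 (46.2%), against 19.0%, 3.14% and 20.9% of all genes. PRPF19, a ubiquitin ligase of the activated spliceosome, reached 15.13 in OCI-R2 and 16.82 in VAL-R2, with 1.53 in VAL-R1. PRPF6, a bridging protein of the tri-snRNP, reached 10.55, 2.01 and 22.32. These were the only PRPF genes bound in both lines, 2 of 13 (15.4%, near the 12.6% of all genes).

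PRPF8, which encodes the core of the catalytic centre, was not called in any library (1.80, 0.18 and 2.27), and neither was PRPF3 (2.87, 0.45 and 1.71). The best PRPF8 peaks of OCI-R2 and VAL-R2 were at different sites, with summits at bases 1588225 and 1554074. PRPF31, whose mutation causes retinitis pigmentosa, was called in VAL-R2 alone at 8.36, with 2.0 in OCI-R2 and no listed peak in VAL-R1. PRPF38B at 7.42 and PRPF18 at 6.65 were also VAL-R2 calls, with 2.87 and 1.61 in OCI-R2. PRPF4 was the weakest call of OCI-R2 at 3.39, in a promoter it shares with CDC26.

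The LSM family had the lowest share of genes bound in both lines, 1 of 15 (6.67%, against 12.6% of all genes). LSM proteins form a ring around the U6 RNA in the nucleus and, with LSM1 in place of LSM8, a cytoplasmic ring that takes part in mRNA decay. LSM5 (ENSG00000106355) was bound in all 3 libraries at 30.08, 8.16 and 6.53. Its fold enrichments in VAL-R1 and VAL-R2 were close, 6.27 and 7.03.

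The other ring genes were called in OCI-R2 or not at all. LSM1 reached 5.62 in OCI-R2 and 1.44 in VAL-R2, LSM3 reached 4.71 and 0.95, and LSM4 reached 3.67 and 0.92. LSM2 stayed at 0.87, 0.00 and 0.80, and LSM6, LSM7 and LSM8 were also not called. LSM10 and LSM11 belong to the U7 snRNP of histone mRNA processing. LSM10 was not called (1.22, 0.12 and 1.73), and LSM11 was called in VAL-R2 at 3.64 with 1.22 in OCI-R2. The membrane protein genes LSMEM1 and LSMEM2 were bound in no library.

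SR protein genes were bound at 3 of 12 promoters in OCI-R2, at none in VAL-R1 and at 7 of 12 in VAL-R2. The OCI-R2 share (25.0%, interval 8.89 to 53.2) was near the 19.0% of all protein-coding genes, and the VAL-R2 share was 58.3% against 20.9%. SRSF5 reached 12.20 in OCI-R2, 0.50 in VAL-R1 and 5.12 in VAL-R2. SRSF4 reached 4.57, 1.46 and 11.27, the reverse order of the 2 lines. SRSF9 completed the shared group at 4.39 and 5.47, with 2.68 in VAL-R1. This group was 3 of 12 genes (25.0%, interval 8.89 to 53.2), and the 12.6% of all genes bound in both lines lay inside that interval.

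The founding members of the family, SRSF1 and SRSF2, were called in VAL-R2 alone. SRSF1, the SF2/ASF oncoprotein, was called in VAL-R2 at 7.84 with 2.30 in OCI-R2 and 0.00 in VAL-R1. SRSF2, also known as SC35, was called there at 3.27 and stood at 1.59 and 0.15 in the other libraries, with its peak nearer to the start of MFSD11. SRSF7 at 6.56 and SRSF8 at 6.02 were further VAL-R2 calls, the first in a promoter shared with GEMIN6, and stood at 1.57 and 2.97 in OCI-R2. SRSF3 was not called (0.87 and 1.71, with no listed peak in VAL-R1).

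Of the 25 HNRNP genes 6, 1 and 12 were bound in OCI-R2, VAL-R1 and VAL-R2, and 5 in both lines. In OCI-R2 (interval 11.5 to 43.4%) and VAL-R1 (interval 0.710 to 19.5%) this was near the 19.0% and 3.14% of all genes, and the VAL-R2 share was 48.0% against 20.9%. HNRNPF (ENSG00000169813), which binds G-rich RNA, was bound in all 3 libraries at 16.51, 4.09 and 10.62. HNRNPU, a chromatin-associated hnRNP, reached 13.61 in OCI-R2 and 4.15 in VAL-R2 but 0.00 in VAL-R1. HNRNPK reached 6.84, 2.44 and 3.27.

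The abundant core hnRNPs were not called. HNRNPA1 stayed at 0.87, 0.07 and 1.71, and HNRNPC at 1.36, 0.44 and 1.82. HNRNPA2B1 came close, at 2.87 in OCI-R2 and 2.91 in VAL-R2. HNRNPD, the AU-rich element protein AUF1, was the strongest call confined to OCI-R2 (6.04, with 2.70 in VAL-R2), and HNRNPH3 reached 6.15 in VAL-R2 with 2.62 in OCI-R2, nearest to the start of PBLD. The 5 gene copies and readthrough genes were bound in no library. Reads from near-identical copies may be lost when only unique alignments are kept, and whether this bears on those copies was not tested.

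**Figure D3:**
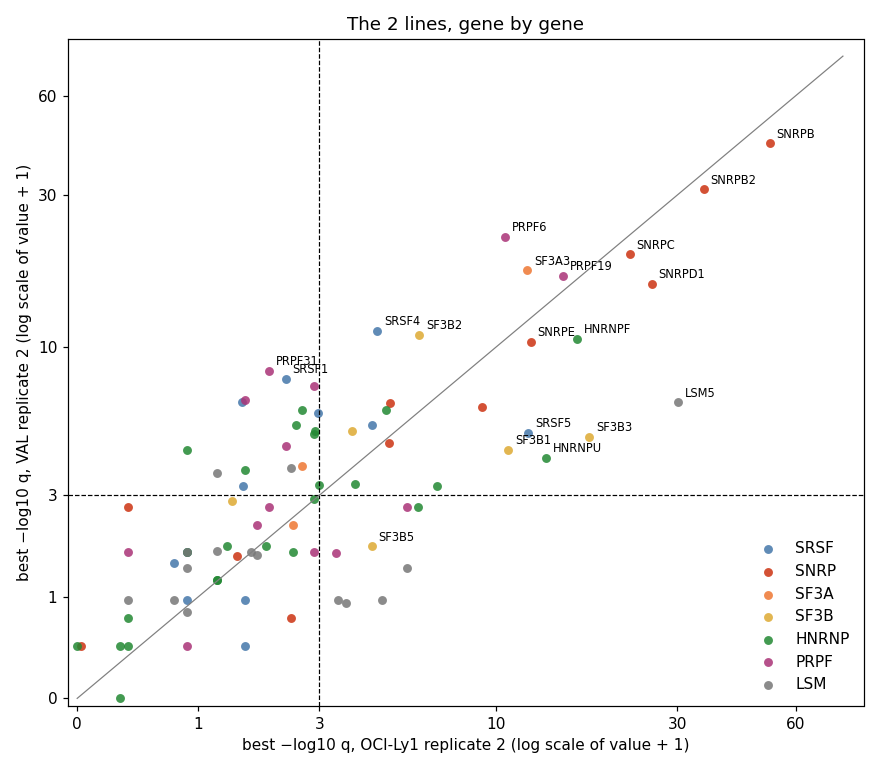
Best −log10 q of each splicing factor gene in OCI-R2 (horizontal) against VAL-R2 (vertical), both axes on a log scale of the value plus 1, colour for family, dashed lines at 3 and a grey line of equal values; genes with no listed peak are drawn at 0. SNRPB and SNRPB2 lie farthest to the upper right, 4 SNRP genes lie below 3 on both axes, and LSM5 lies far to the right of the line of equal values at 30.08 against 6.53.

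Calls confined to 1 line lay nearer to the threshold. The 8 genes called in OCI-R2 alone ran from 3.39 to 6.04 there and from 0.92 to 2.70 in VAL-R2. The 18 genes called in VAL-R2 alone ran from 3.27 to 8.36 there and from 0.87 to 2.99 in OCI-R2, and 12 of the 18 reached 2 in OCI-Ly1. No like count is given here for other genes. The best peak in the library without the call was not always at the called site. At HNRNPUL1 the OCI-R2 summit lay at base 41768341, against 41769734 in VAL-R2, and at SF3A2, HNRNPH1 and LSM12 the sites also differed. The values below the threshold thus do not all describe the called sites. With 1 usable OCI-Ly1 list, a difference between lines cannot be told apart from a difference between libraries. The values just outside the threshold were HNRNPA0 at 2.99 and SRSF8 at 2.97 in OCI-R2, SNRPB2 at 2.83 and SRSF9 at 2.68 in VAL-R1, and HNRNPA2B1 at 2.91 and SF3B4 at 2.84 in VAL-R2. Just inside it were PRPF4 at 3.39 and LSM12 at 3.45, HNRNPF at 4.09 and SF3A3 at 4.12, and HNRNPK and SRSF2, both at 3.27.

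Some calls rested on a TSS other than the 5′ end of the gene record. With that end as the only TSS, LSM5, SRSF5 and SRSF9 were called in no library, HNRNPF was not called in VAL-R1, and HNRNPH1, PRPF40B and SF3A2 were not called in VAL-R2. The genes bound in both lines then included 1 SRSF gene and no LSM gene.

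VAL-R1 missed 18 genes that both other libraries called, and it added none of its own. Its values at those genes had a median of 1.11 over the 16 with a listed peak. At those 16 its best peak had 5 to 20 reads at the summit, where that of OCI-R2 had 7 to 27 and that of VAL-R2 had 6 to 24. The best VAL-R1 peak was not always at the same site. At HNRNPU its summit lay at base 245009586, against 245026434 in OCI-R2, and at HNRNPL, HNRNPLL, SF3B3 and PRPF6 it also lay elsewhere. The read ranges thus do not all describe the sites that VAL-R1 missed. At the 6 genes bound in every library, which its own calls helped to choose, it had 15 to 25 reads, where OCI-R2 had 14 to 41 and VAL-R2 had 8 to 32. The background inferred from the same columns at these 6 was 2.01 to 3.68 reads in VAL-R1, against 0.41 to 0.82 and 0.28 to 0.50, and the fold enrichments were 4.70 to 8.64, against 9.92 to 24.5 and 7.03 to 22.8. At SNRPB2 VAL-R1 had 20 reads over a background of 4.85, and at SNRPE 14 over 5.02. The part of reads and background in the missed calls was not tested.

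Each list was also cut to its 900 strongest peaks, so that the libraries were equally long. Of the 86 splicing factor genes, 12 then remained bound in OCI-R2, 6 in VAL-R1 and 7 in VAL-R2. Of other protein-coding genes, 4.51%, 2.93% and 4.10% remained bound, a lower share in each library. The 7 splicing factor genes of VAL-R2 were PRPF19, PRPF6, SF3A3, SNRPB, SNRPB2, SNRPC and SNRPD1. No SRSF, HNRNP or LSM gene was among these 7, whereas OCI-R2 kept SRSF5, HNRNPF, HNRNPU and LSM5.

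The FLI1 summits of splicing factor genes lay close to the start site and at nearly the same base in both lines. The median distance from the summit to the nearest TSS of the gene was 25 bp in OCI-R2, 21 bp in VAL-R1 and 60 bp in VAL-R2, against 61, 45 and 71 bp at the bound promoters of other genes. Of the OCI-R2 summits 15 lay outside the gene, 9 in an untranslated exon, 6 in an intron and 2 in a coding exon (HNRNPL and LSM4). Within 200 bp of a TSS were 29 of 32, 6 of 6 and 30 of 42 summits (90.6%, 100% and 71.4%), against 73.4%, 79.5% and 69.3% at other bound genes, so that the VAL-R2 share was near that of other genes. At 24 genes bound in both OCI-R2 and VAL-R2 the 2 summits lay a median of 16 bp apart, and 21 pairs (87.5%) were within 50 bp, where 65.3% of 1960 peak pairs at other genes were. The exceptions were HNRNPL, whose summits were 297 bp apart, HNRNPLL and SNRPD3. At the 6 genes bound in every library the VAL-R1 summit lay 1 to 17 bp from that of OCI-R2.

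**Figure D4:**
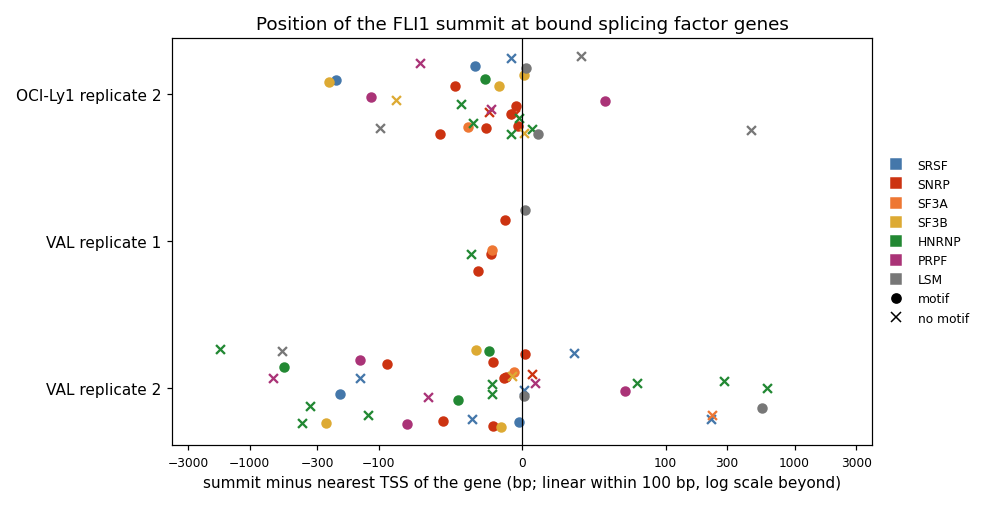
Distance from each bound splicing factor gene's FLI1 summit to its nearest TSS (horizontal axis, bp, negative upstream, linear within 100 bp and on a log scale beyond) in the 3 libraries; colour gives the family, circles have CCGGAAA or CCGGAAG within 50 bp of the summit and crosses do not, and vertical scatter within a library has no meaning. Within 200 bp lie 29 of 32, 6 of 6 and 30 of 42 summits, and the farthest belongs to an HNRNP gene in VAL-R2.

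The motif CCGGAAA or CCGGAAG, on either strand, lay within 50 bp of 17 of 32 summits in OCI-R2 (53.1%), 5 of 6 in VAL-R1 (83.3%) and 21 of 42 in VAL-R2. At bound promoters of other genes the shares were 50.3%, 61.6% and 43.8%. Windows of the same length placed 250 bp to each side of the summits held it in 6.25%, 8.33% and 1.19% of cases. At the summit the motif was thus about as frequent at splicing factor genes as at other bound genes, with differences inside the counting intervals of 36.4 to 69.1% and 35.5 to 64.5% for OCI-R2 and VAL-R2.

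Sites with the motif were the stronger ones by median, though the ranges overlapped. In OCI-R2 the median −log10 q was 12.39 at the 17 genes with the motif at the summit and 4.85 at the 15 without, and in VAL-R2 it was 8.36 and 4.72 at 21 genes each. The OCI-R2 ranges were 3.82 to 51.67 with it and 3.39 to 16.51 without. At other bound genes the motif share in OCI-R2 also rose with strength, from 50.3% to 62.0% at a threshold of 5. Among SNRP genes bound in OCI-R2, SNRPB, SNRPB2, SNRPC, SNRPD1, SNRPE and SNRPA1 had it and SNRPD2 and SNRPD3 did not. Most bound hnRNP summits lacked it. HNRNPU alone had it in OCI-R2, and HNRNPU, HNRNPLL and HNRNPUL1 had it in VAL-R2. None of SRSF1, SRSF2, SRSF7, SRSF8 and SRSF9 had it in VAL-R2, and SRSF4 and SRSF5 did.

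The promoters themselves, taken from RefSeq on GRCh38.p14 as 250 bases before to 50 after the gene start, were matched for 74 of the 86 genes (86.0%) and for 76.0% of other protein-coding genes, so the comparison with the latter covers an incomplete set. The motif was in 26 of the 74 (35.1%), against 18.4% of the other promoters and 18.5% of all. It was in 7 of 11 SNRP promoters, 3 of 3 SF3A, 3 of 5 SF3B, 4 of 9 PRPF, 3 of 12 LSM, 4 of 23 HNRNP and 2 of 11 SRSF promoters. SNRP and SF3B, with the motif in most promoters, were also the families with the largest shares of genes bound in both lines, 8 of 12 and 4 of 6. The other families did not keep this order. SF3A had the motif in every promoter and 1 of 3 genes bound in both lines. PRPF had it in 4 of 9 matched promoters, a larger share than SRSF or HNRNP, but only 2 of all 13 genes bound in both lines. Gene by gene, 16 of the 26 with the motif were bound in both lines (61.5%), and 6 of the 48 without it (12.5%). Among other genes these shares were 37.6% and 7.68%.

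Of the 26 genes with the motif in the promoter, 19 were bound in OCI-R2 (73.1%) and 18 in VAL-R2 (69.2%), where 49.5% and 48.4% of other genes with the motif were bound. Of the 48 without it, 10 (20.8%) and 21 (43.8%) were bound, where other genes without it gave 13.1% and 15.6%. The SRSF and HNRNP families supplied 9 and 19 of those 48 promoters. Together they accounted for 14 of the 21 VAL-R2 calls and for 4 of the 10 OCI-R2 calls.

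Some promoters held the motif and were bound in no library. A few are shown from RefSeq on GRCh38.p14 as 30 bases on the strand of the gene, because they encode partners of strongly bound genes, with the motif in capitals.
SNRPG (chr2:70293490-70293519): cttcatttcttCTTCCGGtccgaggtcgcc
SF3A1 (chr22:30356925-30356954): aggggacggtcCCGGAAGtgcgccagtcgt
SF3B4 (chr1:149927811-149927840): ccgtcttcgccCCGGAAGtggaagtcgtgc
The motif centre lay 47, 46 and 23 bases before the gene start in SNRPG, SF3A1 and SF3B4, and the best values of these genes in any library were 2.39, 2.43 and 2.84. LSM8 and the gene copy HNRNPA1L2 also had the motif and no call.

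Other short motifs were counted in the same promoters. The short core GGAA was in 97.3% of splicing factor promoters and 95.2% of other promoters. GGGCGG, the box of SP and KLF factors, was in 60.8% and 59.3%, GCGCATGC, a motif of NRF1, in 4.05% and 4.26%, and CCAAT, the box of NF-Y, in 47.3% and 36.6%. By family, CCAAT was in 16 of 23 HNRNP and 6 of 9 PRPF promoters but in 2 of 11 SRSF and none of the 3 SF3A promoters. A match in these windows is a description of the letters and not a site.

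Splicing factor promoters also differed from other promoters in base composition and neighbours. The median number of CpG dinucleotides in 300 bases was 27, against 22. The median number of annotated TSS was 7, against 5, which gives more windows in which a peak can fall, and 27 of 86 genes (31.4%) faced a coding gene head to head within 1 kb, against 16.0%. Among promoters of the middle group of CpG content (15 to 28 CpG), 51.5% of splicing factor genes and 26.2% of other genes were bound in OCI-R2, and 51.5% and 26.8% in VAL-R2. In the high group the shares were 33.3% and 25.8%, and 57.6% and 28.4%. Without a head-to-head neighbour they were 35.6% and 15.7%, and 49.2% and 17.5%. With such a neighbour they were nearer to each other, 40.7% and 36.0%, and 48.1% and 37.9%. For binding in both lines, genes with such a neighbour showed no excess. There 7 of 27 splicing factor genes (25.9%) and 833 of 3209 other genes were bound, a nearly equal share. Without such a neighbour the shares bound in both lines were 28.8% and 9.99%. Among genes with over 15 TSS, OCI-R2 bound 4 of 13 splicing factor genes (30.8%) and 32.4% of other genes, whereas VAL-R2 bound 7 of 13 (53.8%) and 34.8%. In both lines 3 of these 13 (23.1%) were bound, near the share of other genes (460 of 2089). With fewer TSS the both-lines share stayed higher at splicing factor genes. It was 21.2% against 8.23% with 1 to 5 TSS, and 35.0% against 15.8% with 6 to 15.

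**Figure D5:**
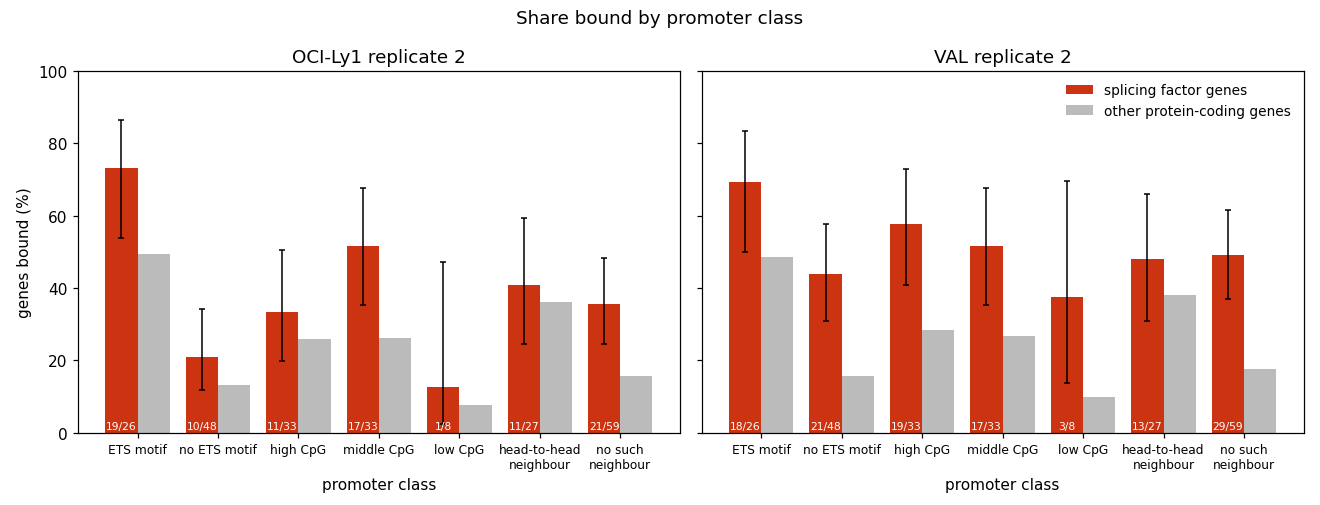
Share of splicing factor genes and of other protein-coding genes bound (vertical axis, percent) in OCI-R2 (left) and VAL-R2 (right) within classes of promoters (horizontal axis); numbers in the red bars are genes bound of genes in the class, and whiskers are Wilson 95% intervals for counting error. In these libraries the red bar is the higher one in every class shown, by the least for genes with a head-to-head neighbour in OCI-R2, 40.7% against 36.0%. Shares bound in both lines are not drawn.

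A list of 105 further splicing genes, outside the 7 families, gave a like share. In OCI-R2 and in VAL-R2, 45 of the 105 were bound in each (42.9%), in VAL-R1 9 (8.57%), in both lines 33 (31.4%) and in all 3 libraries 7 (6.67%). The shares over all protein-coding genes were 19.0%, 20.9%, 3.14%, 12.6% and 2.74% in the same order. U2AF2, which reads the polypyrimidine tract before the 3′ splice site, was bound in all 3 at 13.25, 6.22 and 16.45, whereas its partner U2AF1 stayed at 1.12, 0.18 and 2.70. The others bound in every library were USP39, PPIH, CHERP, ISY1, TRA2B and ACIN1.

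The remaining members of that list varied by set. Of 24 genes for partners of PRPF19 and catalytic step proteins, which act in the activated spliceosome, 13 were bound in OCI-R2 (54.2%), 2 in VAL-R1 (8.33%), 10 in VAL-R2 (41.7%) and 9 in both lines (37.5%). SNRNP70, the U1-70K gene, was called in VAL-R2 alone (3.87, with 1.94 in OCI-R2), as was SNRNP200, the helicase that unwinds U4 from U6 (6.15, with 2.50). EFTUD2, the GTPase of the U5 snRNP, was not called (1.61, 0.18 and 2.91). PTBP1, a repressor of exon inclusion, was called in OCI-R2 at 9.15 and stood at 2.82 in VAL-R2. EWSR1, the RNA-binding protein whose gene is fused to FLI1 in Ewing sarcoma, was not called (1.36, 0.44 and 2.37), nor was the SR kinase gene SRPK1 (0.87, 0.38 and 1.69). Of 16 genes of snRNP assembly, 6, 0 and 7 were bound (37.5%, 0% and 43.8%, against 19.0%, 3.14% and 20.9% of all genes), SMN1 and SMN2 being near-identical copies whose reads cannot be told apart. Of 5 exon junction complex genes, only MAGOH was bound, in OCI-R2, a share near the 19.0% of all genes.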

How the data were processed

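FLI1 ChIP-Seq had been run in OCI-Ly1 and VAL, with 4 FLI1 libraries and 4 input DNA samples, and the deposited peak lists of 3 FLI1 libraries were analysed here. The list of OCI-Ly1 replicate 1 was left out because its intervals were of megabase scale. The input samples were not analysed here. The study's methods name bowtie2, GRCh37, SAMtools with a mapping quality of at least 10 and unique reads, HOMER and an FDR of 0.001, whereas the submitters' processing notes name CASAVA 1.4, BWA and hg19. The caller of the lists, its control and its settings are not given in the sources used here, and the lists were not cut at that FDR. In the deposited 10-column lists the authors give the fold enrichment over background (a linear ratio), the −log10 p and the −log10 q of each peak. The authors' lists also hold a score, 10 times the −log10 p, which was not used.

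Peaks were assigned to each protein-coding gene of GENCODE release 44 (lifted to GRCh37) with a TSS within 3 kb of the peak centre, and the highest −log10 q was kept. Genes of the mitochondrial genome were not counted. Read numbers were solved from the fold and the Poisson p, and the depth of the libraries is otherwise unknown. A gene was bound in both lines when called in OCI-Ly1 replicate 2 and in at least 1 VAL library. Motifs were searched on both strands of GRCh37 within 50 bp of summits. Splicing factor genes, the list of 105 genes and the families were chosen with earlier results of these data known. Values were given for genes bound in all 3 libraries, the strongest of each family in OCI-Ly1 replicate 2 and VAL replicate 2, calls of at least 6 in exactly 1 line, the neighbours of the threshold and the defining proteins of each complex. Other genes were named after their values were seen. Shares are descriptive, with Wilson 95% intervals, and no test was run. Functions were tested on simulated data. Alternatives covered the threshold, list length, fold, window, peak position, TSS set, closest gene, members and libraries. Python 3.11.15, pandas 2.3.3, scipy 1.17.1 and pysam 0.24.0 were used.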

Additional observations from a re-analysis of the deposited data

How the results depend on the processing

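Counts of bound splicing factor genes were recomputed under alternative settings. This gave 59 counts, each of 1 total under 1 setting, which share genes and libraries and are not separate checks. The count in both lines without VAL-R1 could not change, since VAL-R1 added no call of its own. The share of splicing factor genes bound stayed above that of other protein-coding genes in each, and 48 counts stayed within 1.5 times of the reported value. At a looser threshold of 2 on the −log10 q, the counts were 50 in OCI-R2, 13 in VAL-R1, 41 in both lines and 12 in all 3 libraries. The shares of other genes there were 29.4%, 5.08%, 19.9% and 4.18%. At 5 the counts were 20 in OCI-R2 and 13 in both lines, against 11.9% and 7.56% of other genes. With the 900 strongest peaks of each library they were 12 in OCI-R2, 7 in VAL-R2 and 8 in both lines. Of other genes 4.51%, 4.10% and 2.73% were then bound. Leaving out a VAL library gave 6 to 24 genes in both lines and 6 to 24 in every library that was left, the higher value being the one without VAL-R1 and the lower the one without VAL-R2. The fold, window, peak position, transcript type, closest gene and membership moved no total by over 1.5 times.

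By family, an alternative set chosen after seeing the data, 4 SNRP, 1 SF3A, 1 HNRNP, 1 PRPF and 1 LSM gene but no SRSF or SF3B gene stayed bound in both lines among the 900 strongest peaks. With the gene of the closest TSS alone, the PRPF genes bound in OCI-R2 fell from 4 to 2, and with TSS of protein-coding transcripts alone the SF3A genes bound in VAL-R2 fell from 2 to 1. With only the 5′ end of the gene record as TSS, the SRSF genes bound in both lines fell from 3 to 1 and the LSM genes from 1 to 0, and SF3A2, PRPF40B and HNRNPH1 were lost in VAL-R2. The motif share of bound summits was 96.9% in OCI-R2 and 95.2% in VAL-R2 for GGAA within 50 bp, 25.0% and 28.6% for the motif within 20 bp, and 70.0% in OCI-R2 at a threshold of 5. At other bound genes the same shares were 89.1% and 87.5%, 29.6% and 25.4%, and 62.0%. No paired analysis was possible because the results are counts with no test and OCI-Ly1 has 1 usable list. The depth of the libraries is unknown, and the reads behind the calls, as few as 6 in OCI-R2 and VAL-R2 and 15 in VAL-R1, limit their precision.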
